A study of Homo sapiens with 4 samples.

Results

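The 44 genes described here repair broken or crosslinked DNA by homologous recombination and the Fanconi pathway, or carry the checkpoint signal that holds the cell cycle while replication is stalled. They were taken as a fixed list of named genes. Of the 44, 39 had a probe set assigned to that gene alone, out of 18377 such genes on the array, and 38 passed a filter that left out the 40% of genes with the lowest mean intensity, which kept 11027 genes in all. FANCC was the 1 member under the filter. RAD51D and ATRIP share their probe sets with another gene in the annotation and were given no value, and FANCA, FANCD2 and BRCA2 were not analysed here.

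The cells were OPM2, an established human multiple myeloma line, a tumour of antibody-secreting plasma cells. A pair of cultures received DMSO, the drug solvent, and another pair received VS-5584 (SB2343), an inhibitor of PI3 kinases and mTOR, at 123 nM by the sample labels and 125 nM by the series text, and RNA was taken at 24 h (n = 2 arrays per group). No other cell line, dose or time was compared, so the values describe 1 line. The titles call the samples biological replicates and do not say how the cultures were separated, so the p-values below measure the spread between these arrays, which may be technical. All 10 plasma cell markers examined, among them IRF4, PRDM1 and TNFRSF17, lay above the intensity filter. Of 22 measured markers of B, T and NK, myeloid, stromal and erythroid cells 6 did (PAX5, CD247, NKG7, COL1A1, COL1A2 and HBB), with no myeloid gene among them.

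Homologous recombination copies a broken stretch from the sister chromatid and so works mainly after DNA has been replicated. Resection by nucleases such as EXO1 exposes single strands, BRCA1, PALB2 and BRCA2 prepare those strands for exchange, RAD54 proteins help them find and invade the intact copy, and BLM with RMI1 and RMI2 dissolves the joined molecules. The Fanconi core complex, with its ubiquitin-conjugating partner UBE2T, tags FANCI and FANCD2 at a crosslink, and USP1 removes the tag. At stalled forks ATR, called in by TOPBP1 and helped by CLSPN, activates CHEK1, while ATM and CHEK2 answer breaks. Transcription of many of these genes peaks in late G1 and S phase under E2F factors, and plasma cell tumours depend on growth-factor signals for cycling.

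Of the sequence features that members may share, the promoter windows were searched for the letters bound by cell-cycle regulators. A window is the 250 bases before and the first 50 bases of the transcript start that RefSeq annotates (GRCh38.p14), and 39 of the 44 members had one. An E2F-type motif was any of TTTGGCGC, TTTCGCGC, TTTGCCGC or TTTCCCGC on either strand. It lay in 8 of the 39 member windows, a share of 20.5%, against 3.33% of all 27305 windows. Among tested members with a window 5 of 33 held it (15.2%), against 5.59% of the windows of the 8884 tested genes that had one. The median GC content was 64.3% in member windows, 58.3% in all windows and 65.3% in windows of tested genes. Among tested members the motif was about as common in those with a lower intensity at an unadjusted p under 0.05 (3 of 19, or 15.8%) as in the others (2 of 14, or 14.3%). The CHR letters, TTTGAA or TTCGAA on either strand, which mark genes of the later cell cycle, were found in 5 of 39 member windows (12.8%), against 16.6% of all windows. In windows of tested members the share was 12.1%, against 11.2% in windows of tested genes. CCAAT, the letters bound by NF-Y, was found on either strand in 20 of 39 member windows (51.3%), against 35.7% of all windows. For tested members the share was 54.5%, against 37.1% for tested genes. A match says only that the letters are there. Only exact matches were counted, so a window without one may still hold a near match.

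The windows of the 4 members with the smallest p among those holding an E2F-type motif are shown so that the motif can be seen in place. They belong to EXO1 (chr1:241847954-241848253, plus strand), CLSPN (chr1:35769929-35770228, minus strand), TOPBP1 (chr3:133661892-133662191, minus strand) and XRCC2 (chr7:152676092-152676391, minus strand). Each is printed 5′ to 3′ on the gene's strand, and capitals mark the E2F-type motif or its reverse complement.
EXO1: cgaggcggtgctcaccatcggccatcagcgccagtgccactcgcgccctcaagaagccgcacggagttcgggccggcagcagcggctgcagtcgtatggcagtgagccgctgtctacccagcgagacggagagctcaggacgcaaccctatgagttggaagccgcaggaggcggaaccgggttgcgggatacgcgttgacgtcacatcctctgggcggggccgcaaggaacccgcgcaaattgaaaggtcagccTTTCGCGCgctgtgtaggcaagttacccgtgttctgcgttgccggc
CLSPN: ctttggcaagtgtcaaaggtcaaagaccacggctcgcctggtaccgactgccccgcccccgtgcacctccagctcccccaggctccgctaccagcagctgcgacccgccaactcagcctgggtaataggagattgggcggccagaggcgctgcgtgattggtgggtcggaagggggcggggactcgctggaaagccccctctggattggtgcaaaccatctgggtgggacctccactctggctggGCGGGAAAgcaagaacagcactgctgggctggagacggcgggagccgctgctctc
TOPBP1: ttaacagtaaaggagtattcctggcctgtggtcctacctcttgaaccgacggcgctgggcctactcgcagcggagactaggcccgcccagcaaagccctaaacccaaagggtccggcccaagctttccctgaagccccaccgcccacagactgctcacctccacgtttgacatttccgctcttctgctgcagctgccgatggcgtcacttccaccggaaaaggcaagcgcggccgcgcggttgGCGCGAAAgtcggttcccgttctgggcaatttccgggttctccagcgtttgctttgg
XRCC2: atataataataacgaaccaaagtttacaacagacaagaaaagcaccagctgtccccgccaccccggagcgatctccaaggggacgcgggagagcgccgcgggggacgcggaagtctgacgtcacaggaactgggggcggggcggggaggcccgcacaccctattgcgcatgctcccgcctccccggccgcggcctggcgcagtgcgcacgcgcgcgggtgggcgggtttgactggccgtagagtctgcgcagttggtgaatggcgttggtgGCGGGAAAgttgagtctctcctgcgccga

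In the EXO1 window the motif begins 4 bases after the first transcribed base, and in CLSPN and TOPBP1 it lies across or next to the start, beginning 5 and 7 bases before it. The window of POLQ (chr3:121545939-121546238, minus strand), the member with the largest negative difference, holds no exact match to the E2F-type letters searched. Its letters gcgggaag differ only in the last base from the reverse complement of TTTCCCGC. The window is shown with capitals marking its 2 CHR matches.
POLQ: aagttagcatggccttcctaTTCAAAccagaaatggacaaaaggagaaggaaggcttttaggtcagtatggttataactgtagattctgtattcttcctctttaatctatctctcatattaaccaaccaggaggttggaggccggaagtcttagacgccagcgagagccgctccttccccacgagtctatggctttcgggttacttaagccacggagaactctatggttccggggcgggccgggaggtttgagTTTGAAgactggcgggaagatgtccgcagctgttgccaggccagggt

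**Figure D1:**
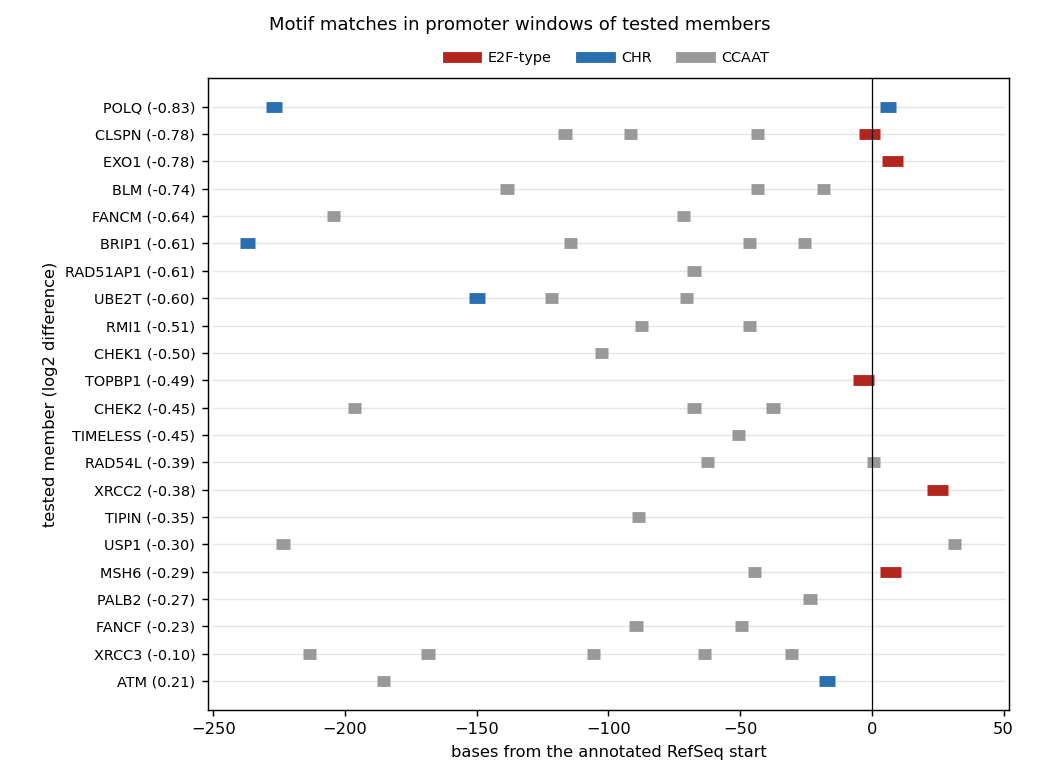
Matches to the E2F-type, CHR and CCAAT letters in the promoter windows of the 22 tested members that hold any, against bases from the annotated start; genes run from the most negative log2 difference (in brackets) at the top to ATM at the bottom. The E2F-type matches, in EXO1, CLSPN, TOPBP1, XRCC2 and MSH6, lie from 7 bases before to 28 after the start, and the genes drawn without one range from POLQ at -0.83 to ATM at 0.21.

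Treated replicate 2 stood apart, with an upper quartile intensity of 106 against 115 to 118 on the other arrays and correlations of 0.980 to 0.985 with them, against 0.993 to 0.996 among those. Results are therefore given for each treated array.

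On the treated arrays most recombination, Fanconi and replication-checkpoint genes had lower intensities than on the controls. Of the 38 tested members 36 had a lower mean, against 62.7% of all genes tested, and after median centring 32 did, against 40.4% of all genes. For 29 members (76.3%) both treated values were below both control values, against 29.2% of all genes. The median log2 difference was -0.42, against -0.064 over all genes. By limma, 21 members were lower at an unadjusted p under 0.05 (55.3%) and 0 were higher, against 8.93% and 1.49% of all genes tested. None passed the threshold of 0.05 after Benjamini-Hochberg adjustment over all genes, nor did any other gene of the 11027 (0%). Adjusted p for members ran from 0.261 to 0.934 in limma, so no member is called changed. An ordinary two-sample test also passed 0 members after adjustment, with 1 lower (UBE2T) and 1 higher (ATM) at an unadjusted p under 0.05, against 2.22% and 2.24% of all genes. Brighter genes were lower more often. With the dimmest 60% left out, 30 of 32 members had a lower mean, against 74.2% of the genes kept. In that setting 27 lay below both controls (36.7% of genes). By limma 21 were lower at an unadjusted p under 0.05 (11.8% of genes). In bulk RNA, fewer cells in S and G2 phase and less RNA per cell cannot be told apart.

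Lower values were seen on each treated array and were further from the controls on replicate 2. Against the control mean, treated replicate 1 had a members' median of -0.21 and treated replicate 2 one of -0.59, against -0.0022 and -0.14 over all genes. On treated replicate 1 alone 30 of 38 members lay below both controls, against 34.6% of all genes, and on treated replicate 2 alone 35 did, against 60.1%. Treated replicate 2 was the lower of the pair for 37 of 38, against 72.2% of all genes. The controls also differed: control replicate 1 was the higher for 25 of 38 members, against 53% of all genes, with a median gap of 0.09. Without treated replicate 2 the median was -0.21, 14 members were lower at an unadjusted p under 0.05, against 4.41% of all genes, and 0 passed after adjustment. For 30 of the 38 the negative difference shrank by over 1.5 times or turned positive. That share was not counted over all genes, whose median also shrank, from -0.064 to -0.0022. Without control replicate 1, too, 14 were lower at that p, against 4.28% of all genes. Without treated replicate 1 the median was -0.59, and 30 members passed (limma, adjusted over all genes), as did 2636 of all genes (23.9%). In each fit with 1 treated array left, the spread comes from the 2 controls alone, the lone array is assumed to vary like them, and the wider treated spread does not enter.

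**Figure D2:**
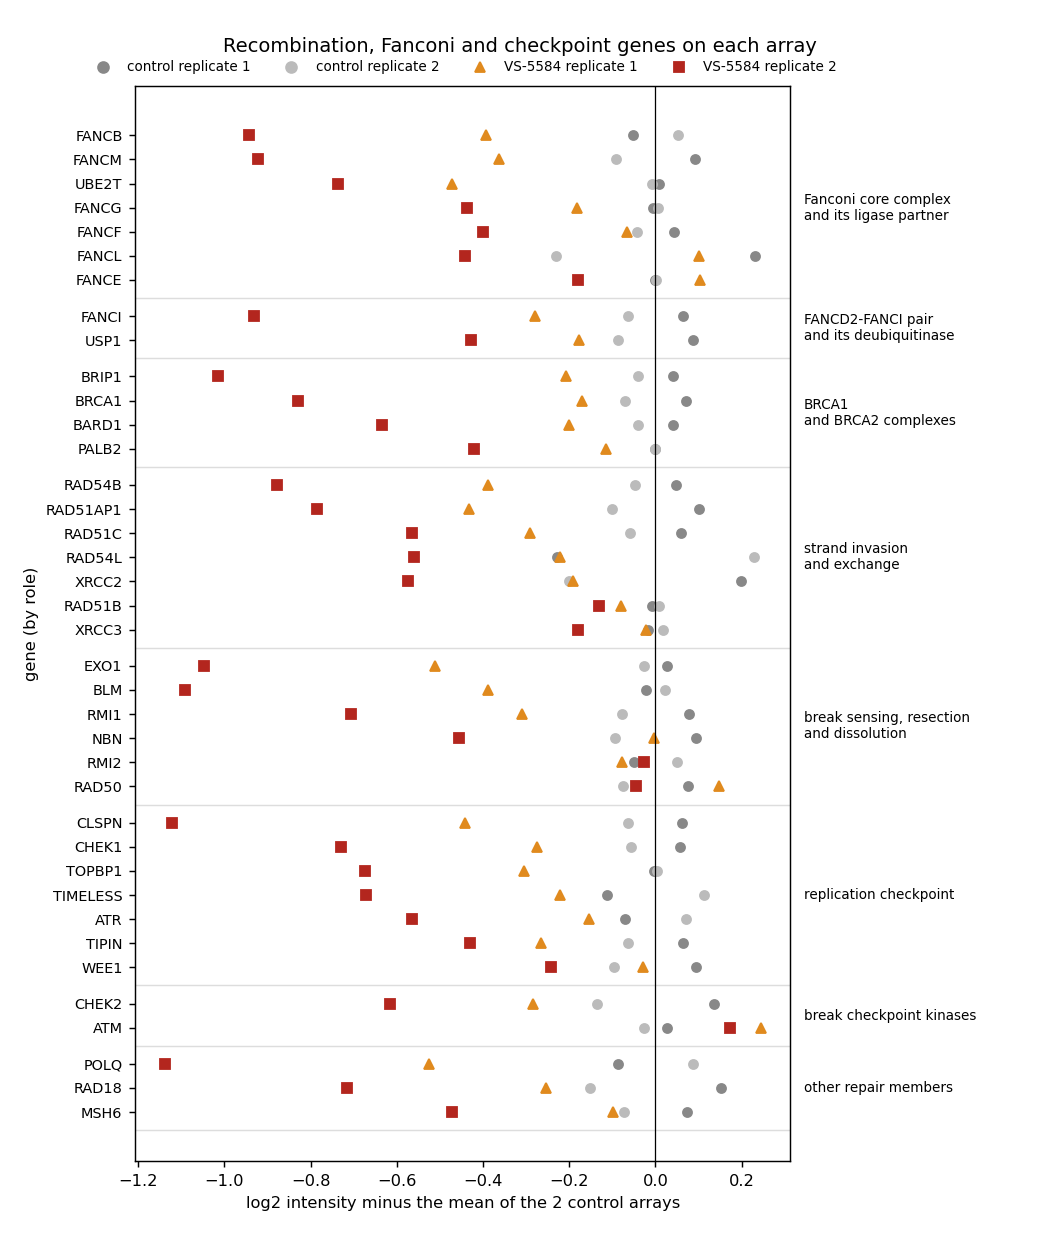
Each row is a tested member, and the points give its log2 intensity on the 4 arrays minus the mean of the 2 controls (grey circles, controls; orange triangles, VS-5584 replicate 1; red squares, VS-5584 replicate 2). In 29 of 38 rows both treated points lie left of both controls, and ATM is the 1 row in which both lie right.

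Of the members 11 were over 1.5-fold lower on average, against 1.65% of all genes tested. On treated replicate 2 alone 5 were over 2-fold lower than the control mean (POLQ, CLSPN, BLM, EXO1 and BRIP1), against 0.753% of genes, and on treated replicate 1 none of the members or of the other genes was. The spread was wider between the treated arrays: the SD exceeded that of the controls in 35 of 38 members, with medians of 0.27 and 0.09. Over all genes tested, the log2 difference between the treated arrays had an SD across genes of 0.25, and that between the controls 0.17. These are spreads across genes and not SDs per gene, so they cannot be set against the members' medians. The share of all genes with the larger SD in the treated group was not counted.

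**Figure D3:**
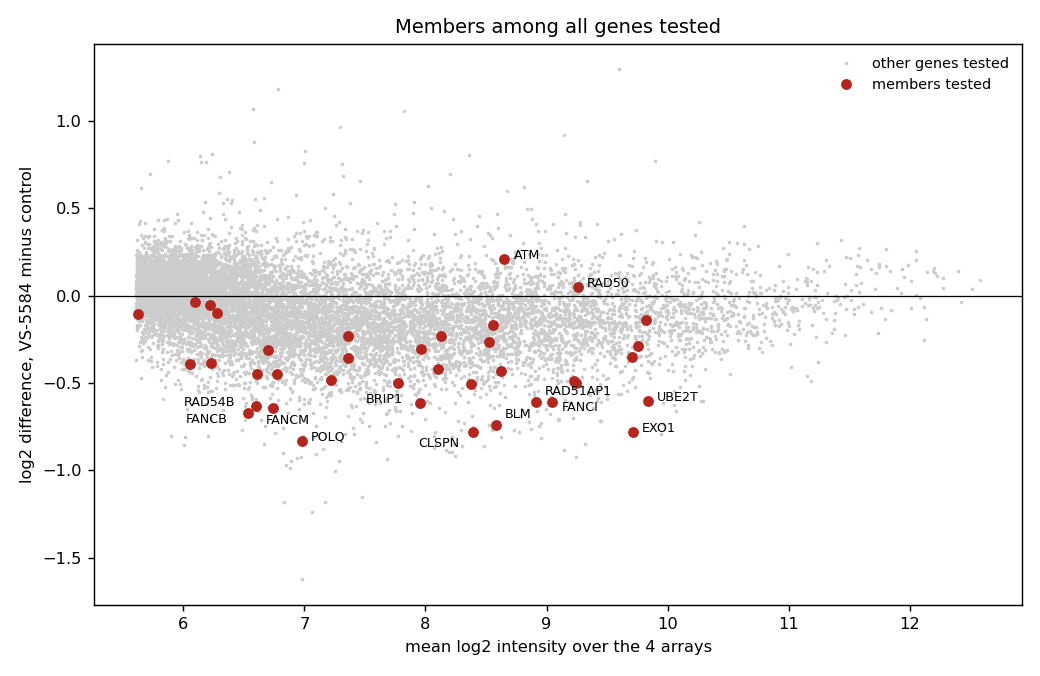
Log2 difference (VS-5584 minus control, means of 2 arrays each) against mean log2 intensity for the 11027 genes tested, with the 38 members in red. Most members sit below 0, from XRCC3 and RMI2 near 0 to POLQ at -0.83, and ATM and RAD50 lie above it (6 members do after median centring). Among the dimmest members RAD51B, FANCE, RMI2 and XRCC3 lie near 0, while RAD54L and XRCC2 lie at -0.39 and -0.38.

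Break processing and dissolution held some of the largest and smallest differences. EXO1 (probe set 7910997), the exonuclease that extends resected ends and also serves mismatch repair, had log2 intensities of 10.13 and 10.08 in the controls and 9.59 and 9.06 in treated cells. Both treated arrays lay below both controls, and the controls were close together. The means were 10.10 ± 0.038 and 9.32 ± 0.38 (SD, n = 2 each), a difference of -0.78 ± 0.18 (SE), or 1.72-fold, with limma adjusted p = 0.261. Across the unblocked settings (those without the replicate number as a term) that keep 4 arrays that p lay between 0.018 and 0.766. BLM (probe set 7986068), the helicase mutated in Bloom syndrome, stood at 8.93 and 8.97 in the controls and at 8.56 and 7.86 in treated cells. The groups did not overlap, the treated SD was 0.50, and the difference was -0.74 ± 0.21 (SE). RMI1 (probe set 8156126), the scaffold that joins BLM to its topoisomerase, was at 8.71 and 8.55 and then at 8.32 and 7.92, a difference of -0.51 ± 0.16 (SE). RMI2, its small partner, was dim, with a control mean of 6.24. It differed by -0.052 ± 0.13 with overlapping groups, and that sign turned with median centring (0.06).

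The break sensors differed little by value. RAD50 (probe set 8107942), the long coiled-coil ATPase of the complex that tethers broken ends, was at 9.31 and 9.16 in the controls and 9.38 and 9.19 in treated cells. Its groups overlapped, and the difference was 0.051 ± 0.14 (SE). NBN, the subunit of that complex that recruits ATM, differed by -0.23 ± 0.17 (SE), and the gap came from treated replicate 2 (-0.45, against -0.0033 on the other).

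POLQ (probe set 8089875), the polymerase of an end-joining route that works when recombination fails, had the most negative difference of all tested members. Its log2 intensities were 7.31 and 7.48 in the controls and 6.87 and 6.26 in treated cells. The groups were well apart, with a difference of -0.83 ± 0.19 (SE), or 1.78-fold, and limma adjusted p = 0.276 (between 0.025 and 0.766 across unblocked settings that keep 4 arrays). RAD18, the ubiquitin ligase that starts lesion bypass, differed by -0.48 ± 0.18, and MSH6, a mismatch-recognition subunit, by -0.29 ± 0.16. All 3 had both treated values below both controls, as had 29.2% of all genes.

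Among the Fanconi genes the differences were spread from over 1.5-fold to near 0. UBE2T (probe set 7923426), the enzyme that hands ubiquitin to the FANCL ligase, had 10.14 and 10.13 in the controls and 9.66 and 9.40 in treated cells. Its controls were nearly identical and its treated arrays both far below, a difference of -0.60 ± 0.14 (SE), or 1.52-fold, with limma adjusted p = 0.276 (between 0.037 and 0.766 across unblocked settings that keep 4 arrays). FANCB (probe set 8171381), a scaffold of the core complex, was at 6.81 and 6.92 and then at 6.47 and 5.92. FANCM (probe set 7974166), the translocase that anchors the core complex to DNA, was at 7.15 and 6.97 and then at 6.70 and 6.14. These differences were -0.67 ± 0.18 and -0.64 ± 0.19 (SE), in both cases with no overlap between the groups.

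The other core subunits had smaller differences. FANCG and FANCF differed by -0.31 ± 0.14 and -0.23 ± 0.15 (SE), with both treated values below both controls. FANCL, the ligase subunit, differed by -0.17 ± 0.21 with overlapping groups, its controls being 0.46 apart, and the difference was 0.10 on treated replicate 1. FANCE (probe set 8118963), which bridges the core complex to FANCD2, was at 6.12 on both controls, 6.22 on treated replicate 1 and 5.94 on the other treated array. The treated values thus lay on either side of the controls, with a difference of -0.038 ± 0.14 (SE) that turned to 0.08 with median centring. FANCC, under the intensity filter, had a difference of -0.14 with overlapping groups and was not tested.

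FANCI (probe set 7985829), the partner of FANCD2 in the clamp that is ubiquitinated at a crosslink, was at 9.41 and 9.29 in the controls and 9.07 and 8.42 in treated cells. Both treated arrays were lower, treated replicate 2 by more, and the difference was -0.61 ± 0.20 (SE), or 1.52-fold. USP1, the deubiquitinase that resets the clamp, differed by -0.30 ± 0.15, also without overlap.

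All 4 measured genes of the BRCA1 and BRCA2 complexes had both treated values below both controls, as had 29.2% of all genes. BRIP1 (probe set 8017262), the helicase bound by BRCA1, was at 8.30 and 8.22 in the controls and 8.06 and 7.25 in treated cells. Most of its difference of -0.61 ± 0.23 (SE) came from treated replicate 2 (-1.02, against -0.21 on treated replicate 1). BRCA1 itself differed by -0.50 ± 0.20, with -0.17 and -0.83 on the treated arrays. BARD1, its obligate partner, differed by -0.42 ± 0.16. PALB2, which links BRCA1 to BRCA2, differed by -0.27 ± 0.15 and was not among the 21 members lower at an unadjusted p under 0.05.

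Among genes of strand invasion and exchange 5 of 7 measured genes had both treated values below both controls, against 29.2% of all genes. RAD51AP1 (probe set 7953218), which stimulates strand invasion, was at 9.32 and 9.12 in the controls and 8.78 and 8.43 in treated cells. RAD54B (probe set 8151824), a motor that remodels the paired strands, was at 6.96 and 6.87 and then at 6.53 and 6.04. RAD51C (probe set 8008754), a partner of XRCC3, was at 8.90 and 8.78 and then at 8.55 and 8.27. In all 3 the groups were separate, with differences of -0.61 ± 0.16, -0.63 ± 0.17 and -0.43 ± 0.15 (SE). RAD54L and XRCC2 differed by -0.39 ± 0.18 and -0.38 ± 0.18, but their controls lay 0.46 and 0.40 apart and the groups overlapped. RAD51B and XRCC3, both dim with control means of 5.68 and 6.33, differed by -0.11 ± 0.13 and -0.10 ± 0.13, and with median centring by 0.010 and 0.015.

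In the replication checkpoint 6 of 7 measured genes lay below both controls on both treated arrays, against 29.2% of all genes. By limma 5 were lower at an unadjusted p under 0.05, against 8.93% of all genes. CLSPN (probe set 7914851), the adaptor that presents CHEK1 to ATR, was at 8.84 and 8.72 in the controls and 8.34 and 7.66 in treated cells, the lowest value being that of treated replicate 2. The difference was -0.78 ± 0.20 (SE), or 1.72-fold, with limma adjusted p = 0.307, which lay between 0.043 and 0.766 across unblocked settings that keep 4 arrays. A second probe set of CLSPN differed by -0.97. CHEK1 (probe set 7945014), the kinase that restrains origin firing and mitotic entry, was at 9.55 and 9.43 and then at 9.22 and 8.76, a difference of -0.50 ± 0.17 (SE). TOPBP1 (probe set 8090772), the activator of ATR, was at 9.46 and 9.47 and then at 9.16 and 8.79, a difference of -0.49 ± 0.15 (SE). Both had tight controls and no overlap.

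TIMELESS and TIPIN, which form the fork protection complex, differed by -0.45 ± 0.17 and -0.35 ± 0.14 (SE), and ATR, the apical kinase, by -0.36 ± 0.16. WEE1, the kinase that holds CDK1 inactive, differed by -0.14 ± 0.14 with overlapping groups on its brightest probe set. Its other probe sets differed by -0.37 and -0.52, so the probe sets of WEE1 disagree in size.

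The break checkpoint kinases went opposite ways by value. CHEK2 (probe set 8075164) was at 6.97 and 6.70 in the controls and 6.55 and 6.22 in treated cells, with no overlap and a difference of -0.45 ± 0.16 (SE). ATM (probe set 7943620), which activates CHEK2, was at 8.57 and 8.52 in the controls and 8.79 and 8.72 in treated cells. It was the 1 member with both treated values above both control values, as were 14.7% of all genes. The difference was 0.21 ± 0.13 (SE), or 1.16-fold, with limma adjusted p = 0.584 (between 0.249 and 0.766 across unblocked settings that keep 4 arrays). It was larger with median centring (0.33, unadjusted p = 0.027), cyclic loess (0.35, unadjusted p = 0.011) and quantile normalization (0.33, unadjusted p = 0.017), and by limma it was the 1 member higher at an unadjusted p under 0.05 in those settings. Its replicates were close, with SDs of 0.038 and 0.050, and the difference was similar on treated replicate 1 (0.24) and treated replicate 2 (0.17).

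**Figure D4:**
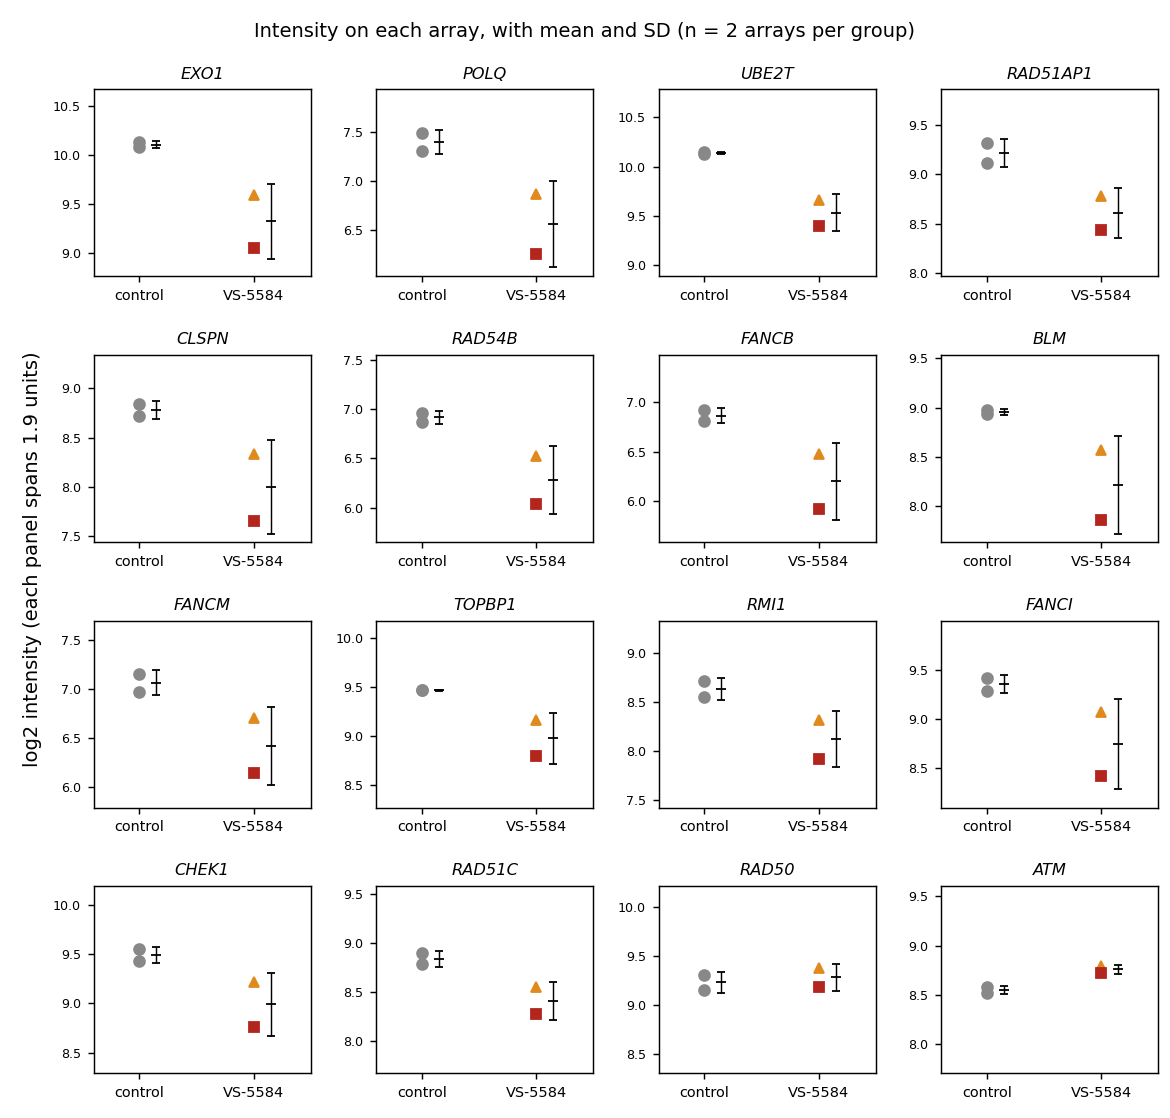
Log2 intensity on each array (grey circles, controls; orange triangle, VS-5584 replicate 1; red square, VS-5584 replicate 2) with the mean and SD of each group (n = 2), for the 14 tested members with the smallest unadjusted p and for RAD50 and ATM. In the 14 both treated points lie below both controls and treated replicate 2 is the lower, RAD50 overlaps, and ATM lies above.

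Other genes of recombination and crosslink repair, from a list of 36 of which 33 were tested, had 17 below both controls and 3 above, against 29.2% and 14.7% of all genes. The median was -0.18 (-0.072 and -0.34 on the treated arrays, replicate 1 first). In that list 10 were lower at an unadjusted p under 0.05 and 0 were higher, against 8.93% and 1.49% of all genes. DNA2, the nuclease that resects ends together with BLM, differed by -0.85 ± 0.19 (SE), with 8.74 and 8.59 in the controls and 8.09 and 7.53 in treated cells. RPA2, a subunit of the protein that coats exposed single strands, differed by -0.69 ± 0.18. Among 23 tested genes of checkpoint and damage signalling outside the members, 15 were below both controls, against 29.2% of all genes. At an unadjusted p under 0.05, 11 were lower and 0 were higher, against 8.93% and 1.49% of all genes. The median was -0.25 (-0.13 and -0.45 on the treated arrays). RAD1, part of the clamp that brings TOPBP1 to ATR, differed by -0.44 ± 0.14, and PLK1, which helps to end the checkpoint, by -0.73 ± 0.22.

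Other repair routes had medians from -0.32 to -0.054, and on treated replicate 1 from -0.13 to 0.055. Their counts stand against 29.2% of all genes below both controls and 8.93% lower at an unadjusted p under 0.05. End joining and the 53BP1 axis had 10 of 15 tested genes below both controls, 4 lower at an unadjusted p under 0.05 and a median of -0.32 (-0.13 and -0.47 on the treated arrays), with PAXIP1 at -0.56 ± 0.18 and XRCC4 at -0.41 ± 0.16 (SE). Base excision and strand-break repair had 9 of 21 below both controls, 5 lower at that p and a median of -0.13 (-0.0068 and -0.31 on the treated arrays), led by the glycosylase NEIL3 (-0.59 ± 0.13) and PARP2 (-0.52 ± 0.15). Mismatch repair had 4 of 6 below both controls, 0 at that p and a median of -0.29 (-0.095 and -0.39 on the treated arrays), with PCNA at -0.30 ± 0.14 and MLH3 at -0.33 ± 0.15. Nucleotide excision repair, with 3 of 15 below both controls, 1 at that p and a median of -0.054, lay near the median of all genes and stood at 0.055 and -0.17 on the treated arrays, and DDB2 and RAD23B differed by -0.42 ± 0.16 and -0.28 ± 0.14. No test was made of the difference between these lists and the members. No gene of any list passed after adjustment over all genes.

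Most cell-cycle genes had lower intensities beside the members. In a list of G1/S and replication genes 28 of 34 lay below both controls, and in a list of G2/M and mitosis genes 24 of 24 did, against 29.2% of all genes. Their medians were -0.55 (-0.30 and -0.85 on the treated arrays) and -0.51 (-0.32 and -0.72). At an unadjusted p under 0.05, 25 and 22 were lower, against 8.93% of all genes. GINS1, of the replicative helicase, and RRM2, of ribonucleotide reductase, differed by -0.92 ± 0.16 and -0.77 ± 0.16, and CDK1 and the spindle kinesin KIF11 by -0.90 ± 0.17 and -0.61 ± 0.15 (SE). What part these cell-cycle differences have in the members' values was not tested. Of 18 tested E2F, RB, DREAM and B-MYB factors, which control many members, 12 were below both controls and 8 lower at an unadjusted p under 0.05 (29.2% and 8.93% of all genes), with a median of -0.29 (-0.15 and -0.49 on the treated arrays), including LIN9 (-0.70 ± 0.16) and E2F8 (-0.79 ± 0.19). Targets of p53, which answer DNA damage, had 2 of 11 below both controls and 4 above, against 29.2% and 14.7% of all genes. In that list 2 were lower and 1 higher at an unadjusted p under 0.05, against 8.93% and 1.49% of all genes. The median was 0.015 (0.093 and 0.033 on the treated arrays), with DDB2 as given and TP53INP1 at 0.37 ± 0.14.

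**Figure D5:**
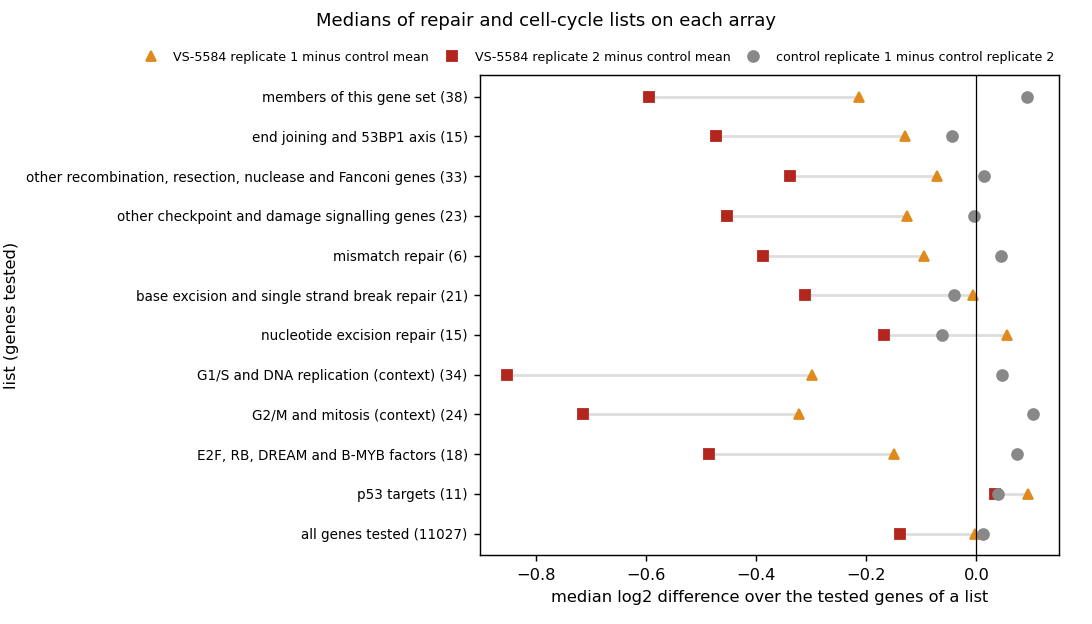
Median log2 difference of the tested genes of each list (number tested in brackets) on VS-5584 replicate 1 (orange triangles) and replicate 2 (red squares) against the control mean, with the gap between the controls (grey circles). The members lie at -0.21 and -0.59, left of all genes tested (-0.0022 and -0.14), of end joining (-0.13 and -0.47) and of the other checkpoint genes (-0.13 and -0.45), and right of the G1/S list (-0.30 and -0.85).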

How the data were processed

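RNA from 2 control and 2 VS-5584 cultures of OPM2 was hybridised to 1-colour arrays. The authors deposited 1 linear intensity per probe set (28869) and array. Per the submitters' processing notes the method was RMA (no version given), and the background correction and scaling are not given in the sources used here. A constant left in the deposited intensities would shrink the folds of dim genes. Without scanner values no gene could be called above background, and with 2 arrays per group their number limits precision.

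Intensities were taken to log2 and not normalized again. Names came from the platform annotation, updated through RefSeq gene IDs for 19279 of the 19310 probe sets with 1 gene, and 1752 probe sets with several genes and 7807 with none listed were not named. The brightest probe set stood for a gene. Genes above the intensity filter (48.9) were fitted in R 4.3.3 with limma 3.58.1 (moderated by eBayes, two-sided, Benjamini-Hochberg over 11027 genes, threshold 0.05), checked on simulated data. SE is that of this fit. With 2 arrays against 2, an exact permutation test cannot go below p = 0.333. The labels do not say whether cultures with the same replicate number were paired, and the main fit treated them as unpaired.

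The members and lists were chosen with earlier results of these data known. Values on all arrays are given for the 14 members with the smallest p, members above 0, the 2 nearest 0 and 1 or more per role, and other lists name their 2 genes with the smallest p. A gene of those lists is not reported here. Figures used matplotlib 3.10.9.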

Additional observations from a re-analysis of the deposited data

How the results depend on the processing

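The median difference of the members stayed negative under every alternative run, from -0.59 without VS5584 replicate 1 to -0.21 without VS5584 replicate 2, and from -0.50 (16 subtracted from the intensities) to -0.31 (median centring) with all 4 arrays. The replicate term, an intensity trend in the variance and the ordinary two-sample test leave each difference as it is, so they do not test the median. Median centring moved the median of all genes from -0.064 to 0.052. It shifts every gene of an array by the same amount, so the members' median minus that of all genes, -0.36, could not change. With all 4 arrays, members below both controls numbered 27 of 38 with median centring (19.7% of all genes), 27 of 32 with the dimmest 60% left out (36.7%) and 29 of 38 or 39 otherwise (21.4% to 29.3%). Settings that change only the test or the filter, and the 16 subtracted, cannot reorder a gene's arrays, so they do not test that count. Cyclic loess, quantile normalization and the mean of a gene's probe sets could have moved it, and each gave 29. Over all genes, 985 were lower and 164 higher at an unadjusted p under 0.05, and 657 and 769 after median centring, 877 and 481 after cyclic loess, and 830 and 374 after quantile normalization, while the members' 21 lower and 0 higher became 20 and 1, 22 and 1, and 22 and 1, the higher one being ATM.

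Whether any member passes after adjustment over all genes depended on the setting. The count of 0 became 3 with median centring (EXO1, CLSPN, POLQ), when 99 of all genes passed, 3 with an intensity trend in the variance (EXO1, POLQ, UBE2T), when 80 did, 2 of 32 with the dimmest 60% left out (EXO1, POLQ), when 58 of 7351 did, and 16 with the replicate number as a block, when 437 did. It ran from 0 to 30 when each array was left out, when 2 to 2636 genes passed. The labels do not say whether same-numbered cultures belong together. Deviations of same-numbered arrays from their group means correlated at 0.155 over genes. Control and treated arrays of the same number correlated at 0.996 (replicate 1) and 0.984 (replicate 2). Those of different number correlated at 0.993 (control 2 with treated 1) and 0.980 (control 1 with treated 2). Whether the block fits the design is therefore not known. Members lower at an unadjusted p under 0.05 numbered 1 (UBE2T) by an ordinary two-sample test, against 21, and 14 to 31 when an array was left out (3.94% to 32.7% of all genes). Signs turned with median centring for FANCE (0.078), RAD51B (0.010), XRCC3 (0.015) and RMI2 (0.064), and when an array was left out for FANCE (-0.18 to 0.10), FANCL (-0.44 to 0.10) and RAD50 (-0.046 to 0.15). The causes were not tested. Having 2 arrays per group limits every single-gene value.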
